A study of Mus musculus with 4 samples.

Results

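The genes described here are Pou3f1, Pou3f2, Pou3f3, Pou3f4 and 2610017I09Rik, the transcript beside Pou3f3 that is also called Pantr1. The array design assigns 1 probe with 1 spot to each of these 5 genes, out of 39429 probes in all. They were taken by gene name, with their mutant over control ratios already known. Those ratios are therefore given below as a description, with no test. Of the 5 probes, 4 passed the filter on dim signal (well above background in mutant RNA or in control RNA on 3 or more of the 4 arrays) and Pou3f2 did not, so 4 of the 23196 probes that passed are members.

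The RNA came from otocysts dissected by hand from E10.5 mouse embryos (strain NMRI). An otocyst is the closed vesicle of ear epithelium from which the inner ear forms and the neurons of its ganglion leave. Mutant embryos (Tbx2/3cDKO) carried Pax2-cre, a cre driven by Pax2 regulatory sequence, together with Tbx2(fl/fl) and Tbx3(fl/fl), the floxed alleles of 2 T-box repressor genes that this cre recombines. Control embryos were Tbx2(fl/?);Tbx3(fl/?), so both groups carried floxed alleles. The labels do not give the second copy of either gene in controls and list no cre for them. Pax2-cre is active wherever Pax2 regulatory sequence works, which includes tissue outside the ear such as the midbrain and hindbrain border. Cells of a dissected otocyst that never expressed this cre, and whose precursors never did, keep both genes. Each of 4 arrays compared mutant RNA in one dye with control RNA in the other. Replicates 1 and 2 were female, replicates 3 and 4 were male, and the mutant RNA was red on replicates 1 and 3 and green on replicates 2 and 4. Whether a replicate is 1 animal or a pool is not labelled. The p-values rest on the spread among these 4 arrays, part or all of which may be technical.

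Pou3f genes encode transcription factors of the POU family, whose members hold DNA with a POU-specific domain and a homeodomain joined by a linker. The genes have no introns. They are best known from the developing nervous system, where they bind octamer-like sites, often together with SOX proteins, and act in progenitors and in neurons. Pou3f4 has a long-standing place in ear biology, since it is expressed in the mesenchyme around the otic capsule and mutations of the human gene cause X-linked deafness.

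The targeted genes were read first. Tbx3 was lower in the mutant RNA on all 4 arrays, with a log2 ratio of mutant over control of -3.43 ± 0.16 (SD, n = 4; limma adjusted p = 3.26e-06). The Tbx2 probe gave 0.06 ± 0.23 (limma adjusted p = 0.656), but nothing in the files says whether it lies in the deleted part of the gene, so it does not check the deletion. The log2 ratios of different arrays correlated with r between 0.643 and 0.849 across probes. Between 58.4% and 63.2% of spots were well above background in either RNA and 0 spots were saturated. Having only 4 arrays limits the precision.

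Over all probes that passed the filter, 12.4% were called higher and 9.7% lower in the mutant RNA (limma, Benjamini-Hochberg adjusted p below 0.05), 2872 and 2249 probes. All 4 detected members were among the 12.4% called higher. Since the members were chosen on this contrast, nothing is read from that count. The same holds for 2 other counts: each of the 4 members had a ratio above 0 on all 4 arrays, which was so for 20.6% of all probes (20.1% were below 0 on all 4), and each had all mutant levels above all control levels, which was so for 12.4% of all probes (10.1% had all mutant levels below all control levels).

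Pou3f3, also called Brn1, is known for its roles in the developing forebrain, hindbrain and kidney. Its probe is printed by its first 30 bases, to show what was measured, and lies at chr1:42756099-42756158 on the plus strand of mm9, 2108 bases into the transcript by the annotation in the files.
Pou3f3 probe, first 30 bases: atgggaactttctttatggggagcgacctg
The normalized log2 level of this probe was 12.64, 12.52, 12.36 and 12.21 in mutant RNA of replicates 1 to 4, against 10.701, 10.80, 10.80 and 10.79 in control RNA. The groups did not overlap, and the lowest mutant level lay 1.41 above the highest control level. The control values spanned little, while the mutant values were higher on both female arrays than on both male arrays. The 4 log2 ratios were 1.94, 1.72, 1.56 and 1.42, with a mean of 1.66 ± 0.22 (SD, n = 4; SE of the fit 0.08), a 3.16-fold difference. Of the 23196 probes, 44 (0.19%) had a higher fitted ratio.

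2610017I09Rik is a long noncoding RNA gene beside Pou3f3, transcribed from the opposite strand. Its probe lies at chr1:42705111-42705170 on the minus strand of mm9, 51 kb from the Pou3f3 probe and 423 bases into its transcript. It is shown whole because it, and not the Pou3f3 probe, is the measure of this transcript.
2610017I09Rik probe: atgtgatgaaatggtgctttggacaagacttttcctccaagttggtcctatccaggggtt
The log2 level of 2610017I09Rik was 12.93, 13.18, 13.34 and 13.40 in mutant RNA of replicates 1 to 4, against 11.08, 11.27, 11.48 and 11.32 in control RNA. No control value reached a mutant value, and the gap between the groups was 1.46. The log2 ratios were 1.86, 1.91, 1.86 and 2.08, with a mean of 1.93 ± 0.10 (SD, n = 4; SE of the fit 0.05), a 3.80-fold difference, and 22 probes (0.0948%) had a higher fitted ratio. Here both male arrays had higher levels than both female arrays in mutant RNA and also in control RNA.

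The 2 neighbours did not keep the same order across arrays. The log2 ratio of Pou3f3 minus that of 2610017I09Rik was 0.08 on replicate 1, -0.19 on replicate 2, -0.30 on replicate 3 and -0.66 on replicate 4, with a mean of -0.26 ± 0.31 (SD, n = 4). The mean difference is smaller than its spread, so the order of their ratios cannot be given.

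Pou3f1, also called Oct6 or SCIP, is known for timing the myelination of peripheral nerves by Schwann cells and is also expressed in neural progenitors. Its probe lies at chr4:124337692-124337751 on the plus strand of mm9, 2802 bases into the transcript, and its first 30 bases are given to identify it.
Pou3f1 probe, first 30 bases: ggagcttcccccttcaccatttcttcatct
The log2 level of Pou3f1 was 9.34, 9.35, 9.13 and 9.25 in mutant RNA of replicates 1 to 4, against 8.26, 8.29, 8.37 and 8.18 in control RNA. The groups were separated by 0.757, with replicate 3 both the lowest of the mutant values and the highest of the control values. The log2 ratios were 1.08, 1.06, 0.76 and 1.06, with a mean of 0.99 ± 0.16 (SD, n = 4; SE of the fit 0.07), a 1.99-fold difference, and 222 probes (0.957%) had a higher fitted ratio. In the scanner software's own ratios, which carry no offset, the mean of Pou3f1 was 1.18.

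Pou3f4, also called Brn4, is the member tied to deafness. Its probe lies at chrX:108010778-108010837 on the plus strand of mm9, 974 bases into the transcript. The log2 level was 7.74, 7.84, 7.53 and 7.78 in mutant RNA of replicates 1 to 4, against 7.27, 7.42, 7.45 and 7.47 in control RNA. The groups did not overlap, but the gap was 0.064. This is a dim probe: its signal was 2.69 to 5.94 times the local background in mutant RNA and 2.29 to 4.94 times in control RNA. The log2 ratios were 0.47, 0.42, 0.09 and 0.31, with a mean of 0.32 ± 0.17 (SD, n = 4; SE of the fit 0.07), a 1.25-fold difference. Of all probes, 1803 (7.77%) had a higher fitted ratio, and replicate 3 was nearly level between mutant and control. The size of the Pou3f4 ratio depended on the processing: the scanner software's ratios, which differ in background treatment and in normalization, were 0.88, 0.83, 0.13 and 0.53, with a mean of 0.59. Without replicate 1, the fitted ratio was 0.23 and the probe was no longer past the threshold.

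Pou3f2, also called Brn2, is known as a factor of neural progenitors and of hypothalamic neurons. Its probe was not well above background on any of the 4 arrays, in mutant or in control RNA. Its signal was 1.03 to 1.68 times the local background in mutant RNA and 0.999 to 1.42 times in control RNA, and the authors' deposited table holds a log2 ratio of 0 for it on all 4 arrays. No fold is given for Pou3f2, and a low level of its RNA cannot be told apart from none with this probe.

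The probes of Pou3f2 and Pou3f4 sample the same stretch of their genes and are shown together for that reason. The Pou3f2 probe lies at chr4:22414031-22414090 on the minus strand of mm9, 1188 bases into the transcript. The last 40 bases of the Pou3f2 probe line up with the first 40 bases of the Pou3f4 probe, and capitals mark the 32 bases (80%) that are the same in both.
Pou3f2 probe: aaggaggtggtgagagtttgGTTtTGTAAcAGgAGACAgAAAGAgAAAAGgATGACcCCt
Pou3f4 probe: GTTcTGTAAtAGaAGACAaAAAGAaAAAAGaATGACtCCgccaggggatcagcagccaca
All 8 differing bases fall on the third base of a codon in the open frame, and all 13 whole codons in the overlap have the same meaning in both genes. The longest run of identical bases in the overlap is 5. Binding of one gene's RNA to the other's probe was not tested. The Pou3f2 probe gave no signal well above background on any array.

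**Figure D1:**
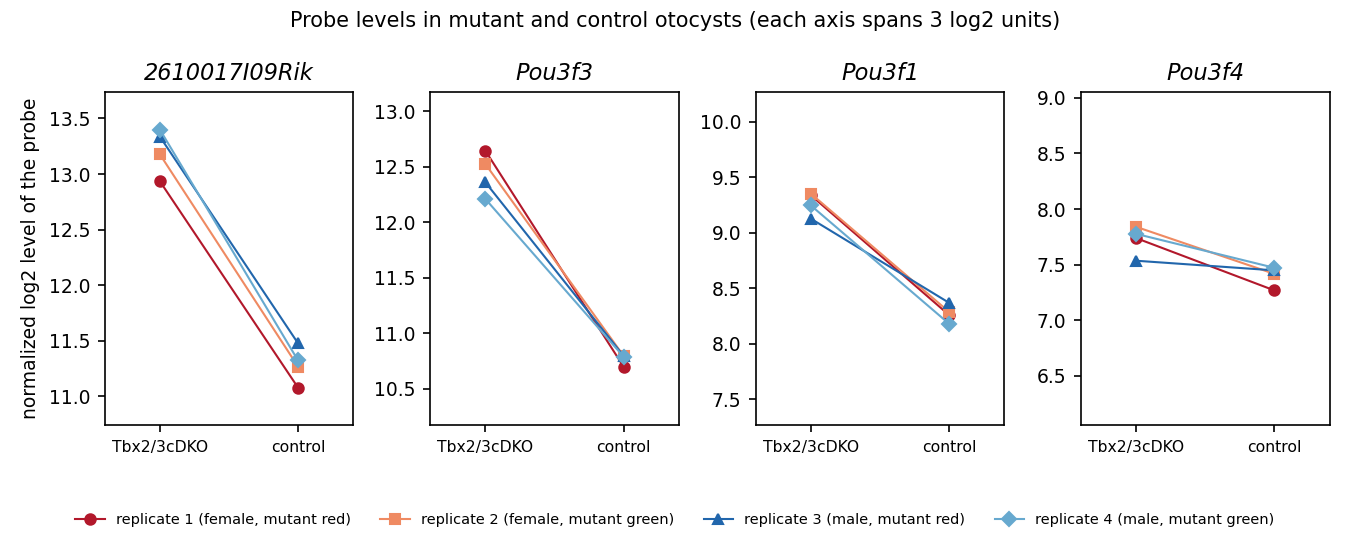
Normalized log2 level of each detected probe (vertical axis, 3 log2 units in every panel) in Tbx2/3cDKO and control RNA, with a line for each array. Mutant points lie above all control points in each panel, by 1.46 for 2610017I09Rik, 1.41 for Pou3f3, 0.757 for Pou3f1 and 0.064 for Pou3f4; levels of different probes are not comparable.

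Set side by side on each array, 2610017I09Rik and Pou3f3 had the larger ratios, Pou3f1 lay below both, and Pou3f4 was lowest. Pou3f1 exceeded Pou3f4 by 0.67 ± 0.07 log2 units (SD, n = 4). This evenness depended on the processing. In the scanner software's ratios, Pou3f1 and Pou3f4 were 1.23 and 0.88 on replicate 1, and 0.97 and 0.13 on replicate 3. Pou3f3 exceeded Pou3f1 by 0.67 on average, with a range of 0.35 on replicate 4 to 0.86 on replicate 1. The neighbours Pou3f3 and Pou3f1 in this order therefore stayed apart on every array, whereas 2610017I09Rik and Pou3f3 changed places between replicate 1 and the other arrays.

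**Figure D2:**
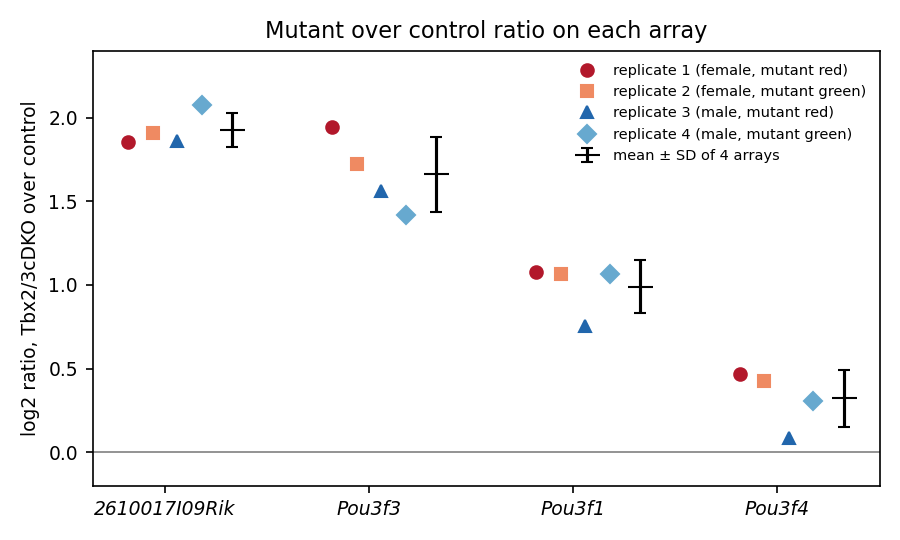
Log2 ratio of Tbx2/3cDKO over control (vertical axis) for the 4 detected probes, with a point for each array and a bar for the mean and SD of 4 arrays. The means are 1.93 for 2610017I09Rik, 1.66 for Pou3f3, 0.99 for Pou3f1 and 0.32 for Pou3f4, and the lowest single value is 0.09 for Pou3f4 on replicate 3.

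Sex was not used in choosing the members, so differences between the male and the female arrays could be tested. The log2 ratio of Pou3f3 averaged 1.49 on the male arrays and 1.83 on the female arrays, a difference of -0.34 (SE 0.09), lower on both male arrays than on both female arrays. Its unadjusted p was 0.00637 and its limma adjusted p 0.158, so it does not hold after correction over all probes. With median centring in place of loess the difference was -0.16 (limma adjusted p = 0.56). For Pou3f4 the means were 0.20 on male and 0.45 on female arrays, a difference of -0.25 (SE 0.10, unadjusted p = 0.0426, limma adjusted p = 0.285). Pou3f1 differed by -0.16 (SE 0.11, limma adjusted p = 0.498) and 2610017I09Rik by 0.08 (SE 0.09, limma adjusted p = 0.702), the last with 0.27 under median centring (limma adjusted p = 0.312). With 2 arrays of each sex, 4 of 23189 probes (0.0172%) passed this test at all, although 16.6% had an unadjusted p below 0.05.

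The mean signal of both RNAs gave a separate comparison of the sexes. 2610017I09Rik was 0.27 log2 units brighter on the male arrays (SE 0.08, unadjusted p = 0.0173, limma adjusted p = 0.345). The other differences were -0.08 for Pou3f1 (limma adjusted p = 0.55), -0.13 for Pou3f3 (limma adjusted p = 0.415) and -0.01 for the X-linked Pou3f4 (limma adjusted p = 0.97). No member passed the threshold, as was so for all but 2 of 23189 probes (0.00862%). Sex and array pairs coincide here, so a sex difference and a difference between pairs of arrays cannot be told apart.

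The neighbourhood of each member was read by position, within 500 kb of its probe. Around Pou3f3, 9 of 12 probes passed the filter. Besides 2610017I09Rik, 2 of 8 were higher in mutant RNA and 0 were lower, against 12.4% and 9.7% of all probes. The nearest was the provisional transcript 2900092D14Rik, 3.9 kb from the Pou3f3 probe, which was well above background in mutant RNA on all 4 arrays and in control RNA on none. It was at least 1.57-fold higher in mutant RNA (limma adjusted p = 0.000445), a bound set by the dimmest signals well above background. Fhl2, a LIM domain protein of muscle and other tissues 423.9 kb away, had a log2 ratio of 0.41 (limma adjusted p = 0.00202). Mrps9, a mitochondrial ribosomal protein gene 202.1 kb away and the next detected gene, gave 0.07 (limma adjusted p = 0.527).

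Pou3f1 lies among more genes, and its nearest neighbours did not share its ratio. Of 34 probes within 500 kb, 22 passed the filter, 2 were higher and 0 were lower, against 12.4% and 9.7% of all probes. The nearest detected genes were Utp11 at 18.4 kb, a ribosome assembly factor, with a log2 ratio of -0.003 (limma adjusted p = 0.975), Fhl3 at 45.5 kb with -0.004 (limma adjusted p = 0.973) and the splicing factor gene Sf3a3 at 71.9 kb with 0.01 (limma adjusted p = 0.896). The 2 higher genes were Maneal, 194.8 kb away, and Rspo1, a secreted enhancer of Wnt signalling 348.6 kb away, each with a log2 ratio of 0.34 (limma adjusted p = 0.00583 and 0.0065). Rspo1 varied widely, with 0.63 on replicate 2 and 0.03 on replicate 3.

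Around Pou3f2, 4 probes passed the filter and 0 were called. The nearest gene, Fbxl4, gave -0.10 with a probe 53.2 kb away (limma adjusted p = 0.233). Around Pou3f4, 2 probes passed and 0 were called. They included Rps6ka6, a kinase gene 491.1 kb away, with 0.20.

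**Figure D3:**
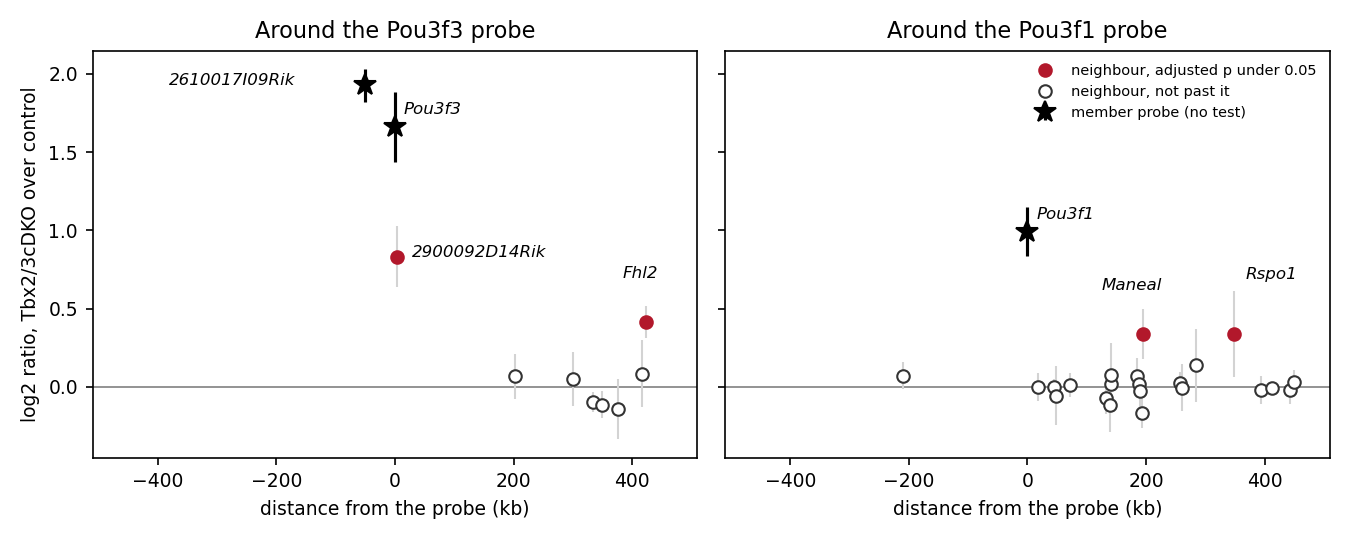
Log2 ratio of Tbx2/3cDKO over control (vertical axis; grey bars, SD of 4 arrays) of detected probes within 500 kb of the Pou3f3 probe (left) and the Pou3f1 probe (right), by distance in kb. Stars are members, filled points other probes with an adjusted p below 0.05, and open points the rest; 2900092D14Rik at 3.9 kb and Fhl2 at 423.9 kb were called beside Pou3f3, and Maneal and Rspo1 beside Pou3f1.

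Promoter sequences were available for 3 of the 5 members, Pou3f2, Pou3f3 and Pou3f4, in RefSeq's table on GRCm38.p6. The 250 bases before each start are shown because they were searched for motifs of T-box, POU and SOX factors and for a general promoter element. Capitals mark the CCAAT box, on either strand (CCAAT or ATTGG). Pou3f2 is at chr4:22488367-22488616 on the minus strand, Pou3f3 at chr1:42695518-42695767 on the plus strand and Pou3f4 at chrX:110814129-110814378 on the plus strand.
Pou3f2 promoter: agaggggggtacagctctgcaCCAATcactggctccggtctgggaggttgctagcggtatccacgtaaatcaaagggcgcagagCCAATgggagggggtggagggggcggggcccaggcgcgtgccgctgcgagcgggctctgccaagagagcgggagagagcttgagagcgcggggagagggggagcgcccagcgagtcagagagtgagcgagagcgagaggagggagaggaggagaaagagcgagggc
Pou3f3 promoter: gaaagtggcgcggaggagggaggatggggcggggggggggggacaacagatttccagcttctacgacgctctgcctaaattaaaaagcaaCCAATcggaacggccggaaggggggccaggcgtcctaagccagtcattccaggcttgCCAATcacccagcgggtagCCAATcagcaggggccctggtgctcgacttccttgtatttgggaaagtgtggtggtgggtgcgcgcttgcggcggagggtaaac
Pou3f4 promoter: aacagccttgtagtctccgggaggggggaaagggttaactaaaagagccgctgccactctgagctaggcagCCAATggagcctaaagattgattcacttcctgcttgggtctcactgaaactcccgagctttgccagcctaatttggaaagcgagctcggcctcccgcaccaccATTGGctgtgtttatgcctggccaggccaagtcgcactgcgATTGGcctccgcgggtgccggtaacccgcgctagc
The CCAAT box, that general element, occurred 2 times in Pou3f2, 3 times in Pou3f3 and 3 times in Pou3f4. In Pou3f3 the boxes begin at -160, -103 and -84 from the start, and in Pou3f4 at -179, -76 and -35. Of 32851 promoters of this length, 33.8% held at least 1 CCAAT box, 10.1% at least 2 and 2.79% at least 3. The T-box core GGTGTGA or its reverse complement TCACACC, the octamer ATGCAAAT or ATTTGCAT, and the SOX core ACAAAG or CTTTGT each occurred 0 times in the 3 windows. They were held by 3.33%, 1.6% and 16.5% of all promoters in that order. These letters are absent from these windows, and nothing follows from that about the factors.

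The other POU genes were read through their brightest detected probe, with 5 of 11 passing the filter. Pou4f1 and Pou6f1 were higher in mutant RNA and 0 were lower, with a list median of 0.07 against 0.004 over all 18424 genes tested, of which 13.1% were called higher and 9.81% lower. Without replicate 4 the list median was 0.16. Pou4f1, also called Brn3a, marks sensory neurons; its log2 ratio was 1.57, 1.62, 1.44 and 1.51 on replicates 1 to 4 (mean 1.53 ± 0.08, SD, n = 4; limma adjusted p = 1.22e-05). Pou6f1, a neural POU factor, had 0.69 ± 0.12 (SD, n = 4; limma adjusted p = 0.000351). Pou2f1, a widely expressed octamer binder, gave 0.07 (limma adjusted p = 0.367) and Pou1f1, the pituitary factor, 0.07 (limma adjusted p = 0.527). The Pou1f1 probe was bright, with a mean log2 level of 13.8 in mutant and 13.7 in control RNA. Whether it reads only that gene was not tested. The pluripotency factor Pou5f1 and the hair cell and retinal factors Pou4f3 and Pou4f2 were among the 6 not detected.

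SOX genes, whose products pair with POU factors on DNA, moved in both directions. Of 8 detected genes of 9, 4 were higher and 2 lower in mutant RNA, with a median log2 ratio of 0.13. Over all genes tested, 13.1% were called higher and 9.81% lower. Sox3, a factor of neural progenitors, had ratios of 2.08, 2.05, 2.04 and 1.62 on replicates 1 to 4 (mean 1.95 ± 0.22, SD, n = 4; limma adjusted p = 1.72e-05). Sox2, of the same subgroup and also needed for sensory patches of the ear, had -0.48 ± 0.11 (SD, n = 4; limma adjusted p = 0.00165). The third gene of that subgroup, Sox1, gave 0.06 (limma adjusted p = 0.515). Its probe is dim, well above background on 3 of 4 arrays in each RNA. Of these close relatives, Sox3 was therefore higher and Sox2 lower, while little can be read from Sox1.

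Of the remaining SOX genes, Sox4, Sox11 and Sox21 were called higher with log2 ratios of 0.35, 0.29 and 0.20 (limma adjusted p = 0.00431, 0.0349 and 0.04). Sox4 and Sox11 act in neurons that are leaving the cell cycle. Sox4 is uncertain: its 2 other detected probes gave 0.17 and -0.02, neither past the threshold, and the other probe of Sox21 gave 0.09. Sox10, a factor of neural crest, glia and otic epithelium, fell, with -0.35 (limma adjusted p = 0.0104), and Sox12 gave -0.15 (limma adjusted p = 0.138). The count of 4 higher SOX genes was 2 in the scanner software's ratios, without replicate 1, without replicate 2, without replicate 3 and when a gene's probes were averaged. The count of 2 lower ones was 1 without replicate 1.

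Genes that work in other tissues has placed downstream of Pou3f factors were called in both directions. Of 15 listed, 9 were detected, 3 were higher, 3 lower and 3 not past the threshold, with a median log2 ratio of -0.02. Over all genes tested, 13.1% were called higher and 9.81% lower. Fabp7, a fatty acid binding protein of radial glia, had 0.85 ± 0.20 (SD, n = 4; limma adjusted p = 0.000174), and the Notch ligand gene Dll1 had 0.57 ± 0.20 (SD, n = 4; limma adjusted p = 0.00169). The hormone gene Gcg, which Pou3f4 is known to activate in pancreatic cells, was not well above background in mutant RNA on any array and was at least 1.4-fold lower there (limma adjusted p = 0.000237). The guidance receptor gene Epha4 had -0.27 ± 0.10 (SD, n = 4; limma adjusted p = 0.0153).

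Efnb2 and the myelin gene Mbp were the remaining called genes, with 0.24 (limma adjusted p = 0.0498) and -0.25 (limma adjusted p = 0.0123). Efnb2 was below 0 on replicate 4, and 2 further Mbp probes gave 0.06 and -0.20, neither past the threshold. Nes, the intermediate filament of neural progenitors, gave -0.12 (limma adjusted p = 0.247). Without replicate 1, the count of 3 lower genes in this list was 1. The count of 3 higher genes was 2 in the scanner software's ratios, with median centring and with no dye term. It was also 2 without replicate 1, without replicate 2 and without replicate 3, among other alternatives. Egr2, a known target in the Schwann cell lineage, and the hypothalamic hormone genes Crh, Oxt and Avp were not detected.

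Markers of the tissues in and around the otocyst were read beside these results. All 20 otic epithelium markers were well above background in control RNA on all 4 arrays. So were all 18 detected mesenchyme, all 13 endothelial, 17 of 19 neuron and 12 of 14 red blood cell markers. Detection therefore does not tell one tissue from another here. Over all genes tested, 13.1% were called higher and 9.81% lower, and the counts of each marker list stand beside those shares. Of the 20 otic epithelium markers, 15 were lower and 1 higher in mutant RNA, with a median log2 ratio of -0.73. The count of 1 higher was 0 without replicate 2, without replicate 3, with another offset, with median centring and in the scanner software's ratios. Their mean log2 level was 11.6 to 11.7 over mutant samples and 12.5 to 12.6 over control samples. Hmx2 (-1.94), Otx1 (-1.70), Gbx2 (-1.5) and Oc90 (-1.83), regional transcription factors of the vesicle and an otoconial matrix gene, had the smallest adjusted p (limma, 5.43e-06 to 2.07e-05). In bulk RNA, fewer cells of a type and less RNA per cell cannot be told apart, and this touches the members too.

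Markers of neurons and of the neural tube, where Pou3f genes are known to be expressed, were read in the same way. Of 19 detected neuroblast and neuron markers, 13 were higher and 1 lower in mutant RNA, against 13.1% and 9.81% of all genes tested. The list median was 0.72, with a mean log2 level of 10.1 to 10.3 in mutant against 9.44 to 9.50 in control samples. Nefm (1.65), Ina (1.27), Elavl4 (1.05) and Nhlh2 (1.05) had the smallest adjusted p (limma, 1.02e-05 to 5.78e-05). The 1 lower gene was Prdm12, with -1.25 (limma adjusted p = 0.000202). Among the 5 not past the threshold were Neurog1 with 0.16 and Isl1 with 0.14 (limma adjusted p = 0.0908 and 0.1). Of 20 hindbrain and neural tube markers, 13 were detected, 5 were higher and 3 lower, with a median of -0.02. Their mean level was 9.69 to 9.84 in mutant against 9.44 to 9.52 in control samples. The median shows no shift like that of the means, which take in En2 and Pax3, the largest ratios of the list. En2, a marker of the midbrain and hindbrain border where Pax2 is also active, was well above background in no control sample and was at least 4.2-fold higher in mutant RNA (limma adjusted p = 7.04e-06), and Pax3 and Zic2 had 1.05 and 0.59 (limma adjusted p = 9.82e-05 and 0.000832). The 3 lower genes were Hoxb2 with -0.41, Nkx6-1 with -0.45 and Irx3 with -0.30 (limma adjusted p = 0.00335, 0.0167 and 0.0293). The defining neural tube genes Pax6, Pax7, Olig2, Dbx2, Hoxb1 and En1 were among those that did not pass the filter. Without replicate 3 the count of 3 lower was 1, and with probes above background on all arrays in both RNAs the count of 5 higher was 3.

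Periotic mesenchyme, the known site of Pou3f4 in the ear, had 13 of 18 detected markers higher and 0 lower, with a median of 0.35. Over all genes tested, 13.1% were called higher and 9.81% lower. The mean level of the mesenchyme markers was 11.7 to 11.9 in mutant against 11.2 to 11.3 in control samples. Meox2 (1.68), Osr1 (1.24), Foxc1 (0.93) and Foxc2 (1.18) had the smallest adjusted p (limma, 9.75e-06 to 9.01e-05). Of the 7 detected crest and glia markers, 3 were higher and 4 lower (median -0.35), with a mean level of 10.9 to 11.0 in mutant against 11.0 to 11.2 in control samples. They included Fabp7, Ets1 at 0.55 (limma adjusted p = 0.000568) and Ednrb at -0.67 (limma adjusted p = 0.00153). All 13 detected endothelial markers were higher, with a median of 0.66, a mean level of 10.9 to 11.0 in mutant against 10.3 to 10.4 in control samples, and Sox17 (0.79), Emcn (0.70), Plvap (0.66) and Pecam1 (0.66) having the smallest adjusted p (limma, 0.00012 to 0.000214). With all detected probes of a gene averaged, the endothelial median was 0.42.

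All 14 red blood cell markers were higher, against 13.1% of all genes tested. These markers had a median of 1.08 and a mean level of 12.3 to 12.6 in mutant against 11.2 to 11.5 in control samples. Those with the smallest adjusted p (limma, 1.11e-05 to 2.92e-05) were Hbb-bh1, Hbb-y, Hba-a1 and Slc4a1, with 1.45, 1.29, 1.34 and 1.11. The part of any of these tissues in the members' ratios was not tested.

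**Figure D4:**
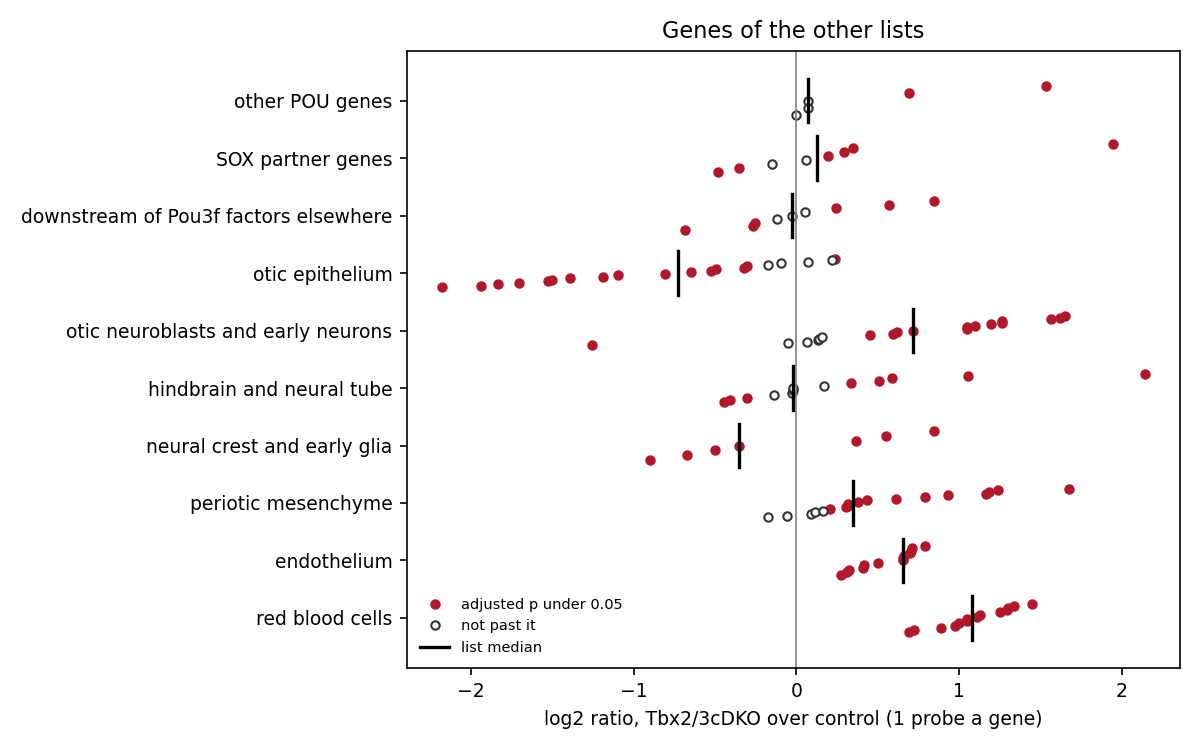
Log2 ratio of Tbx2/3cDKO over control (horizontal axis) of each detected gene in 10 lists, with 1 probe a gene. Filled points passed an adjusted p of 0.05, open points did not, and bars are list medians, which run from -0.73 in otic epithelium to 1.08 in red blood cells.

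The genes whose 4 ratios lay nearest to those of a member were named by the root mean square difference over the 4 arrays, among 12770 genes with established names. For Pou3f3 they were Clec18a, Kcnc1, a voltage-gated potassium channel of fast-spiking neurons, and Ces1d, a carboxylesterase, at 0.134, 0.140 and 0.179 log2 units. The Clec18a probe was well above background in 1 of 4 control samples and its other probe gave 1.21, and the other probe of Kcnc1 gave 0.54. For 2610017I09Rik they were Ctxn3, Nsg2, a neuronal vesicle protein, and Kcns3, a potassium channel subunit, at 0.141, 0.172 and 0.173, with Kcns3 well above background in 1 of 4 control samples. These distances describe likeness over 4 arrays and carry no test.

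For Pou3f1 the nearest were Tnnc2, a troponin of fast muscle, Pde2a, a cyclic nucleotide phosphodiesterase, and Klf1, a red blood cell factor, at 0.057, 0.060 and 0.070 log2 units. For Pou3f4 they were Izumo1r, Ypel4 and Myo1h, each at 0.060, with Myo1h well above background in no control sample. The nearest genes of Pou3f1 and Pou3f4 lay closer to them than those of Pou3f3 and 2610017I09Rik did. Only 44 and 22 probes had higher ratios than Pou3f3 and 2610017I09Rik, against 222 and 1803 for Pou3f1 and Pou3f4. With fewer genes at such high ratios, larger distances come about anyway, so nothing is read from this.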

How the data were processed

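Mean spot intensities and local background intensities came, per the file headers, from Agilent's Feature Extraction software, version 10.7.3.1 in the submitters' processing notes. The log10 ratios of red over green in the same files are the scanner software's, from background-subtracted, dye-normalized signals, per the file headers, as are its flags for spots above background, non-uniform or saturated. The authors also deposited a value table of signed folds (mutant over control), a score here. As log2 they lay within 0.001 of the scanner's ratios for 90.8% to 93.2% of 39429 probes, with a median of 1 in each column. The sources used here do not say how the rest were changed.

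Intensities were corrected with normexp (offset 50) and normalized by loess within each array with limma 3.58.1 in R 4.3.3; control spots had weight 0. Between 21 and 32 non-uniform spots an array were left out. Channel levels come from Aquantile normalization after loess. The model for log2 ratios (lmFit, eBayes) had 2 residual and 4.84 prior degrees of freedom, with a dye term and the genotype coded by which dye the mutant RNA carried. P-values were adjusted by Benjamini-Hochberg at 0.05 over all probes that passed the filter. Sex differences used a genotype by sex term, and the mean log2 signal of both channels. All arrays lay on 1 slide, per the file headers, so no slide block could be fitted.

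Names came from a RefSeq table (GRCm38.p6, names and promoters), by accession for 26412 probes, symbol for 3854 and synonym for 735; the other 8428 have the name in the file. Probe coordinates are those of the files (mm9). A list used each gene's brightest detected probe. Named were the members, Tbx2 and Tbx3, up to 4 genes a list by smallest adjusted p, every detected POU and SOX gene, up to 3 nearest named neighbours on each side, and 3 genes nearest each member in ratio; other list genes and neighbours named were chosen after their values were seen. Some genes that met this rule are not reported here. Members and lists were chosen with earlier results of these data known. Alternatives covered background correction, normalization, the scanner's and the authors' ratios, the filter on dim probes, a sex term, no dye term, array weights, outlier spots, the probe rule and each array left out in turn. The fits were checked on simulated data under 2 choices of noise, and the share of changed probes recovered, above all of sex differences in the ratio, depended on that choice, so it sets no limit on the size of a sex difference that was not called. Plots used matplotlib 3.10.9 and Python 3.11.15.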

Additional observations from a re-analysis of the deposited data

Results flagged for a closer look

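Of 12 groups of 4 values examined for a sample far from the others (ratios, mutant levels and control levels of the 4 detected probes), 2 stood out. Chance gives such a gap in about 1 of 20 groups. The log2 ratio of Pou3f1 on replicate 3, 0.76, lay below the other 3 (1.06 to 1.08), and its gap took up 0.957 of the whole range, above Dixon's critical value for 4 samples. The control level of Pou3f3 on replicate 1, 10.701, lay below the other 3 (10.79 to 10.80), a gap of 0.919 of a range that is itself narrow.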

How the results depend on the processing

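The ratios of the 4 detected members stayed above 0 in all 16 alternatives: 0.91 to 1.18 for Pou3f1, 1.57 to 1.76 for Pou3f3, 0.23 to 0.59 for Pou3f4 and 1.88 to 1.97 for 2610017I09Rik. Many of these could not have given another sign, so little is read from that count. Changes of the filter, model terms, weights or outlier spots, and the separate-channel fit, gave the main ratios again. The scanner software's and the authors' ratios were the same for the members. Each member was above 0 on all 4 arrays before any array was left out. The scanner software's ratios and the authors' deposited table gave 1.1773 for Pou3f1 and 0.592 for Pou3f4, more than 1 SD from the values above; the cause was not tested. Pou3f4 was not past the threshold without replicate 1; the other 3 members were past it in all 16. Probes called lower numbered 2249 and, with an array left out, 1342 (without replicate 3) to 2172. The count of probes with a sex difference in the ratio was 4, and it was 0 with an offset of 16, 53 without background correction and 685 with median centring. For the mean signal it was 2, and 0 with an offset of 16, 1 without background correction and 1 without the filter. The difference of the mean signal of Pou3f4 turned to 0.01227 without background correction (limma adjusted p = 0.969). Probes called reached 4050 higher and 3348 lower with a genotype by sex term, and 3886 and 3283 in a separate-channel fit. Each array pairs mutant with control RNA, so the ratio is already the paired value. For Pou3f2 and Pou3f4, signal near the background limits what can be seen.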
